A study of Mus musculus with 21 samples.

Results

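The data described here are for the Polycomb group genes Ezh1, Ezh2, Eed, Suz12, Rbbp4, Rbbp7, Jarid2, Rnf2, Ring1 and Bmi1, followed from sperm and oocyte to the blastocyst of the mouse. A transcript of the merged long-read annotation was given to a gene when its exons overlapped exons of that gene in GENCODE vM21 on the same strand, and the value of a gene is the sum of its transcripts in TPM, a read abundance corrected for transcript length and scaled to the same total in every library. By this rule 9 of the 10 genes had a transcript, of 10917 genes in all, and they held 20 of 22612 merged transcripts. Ring1 (chr17:34020792-34024680, minus strand), the paralog of Rnf2, had none and therefore has no value in what follows, which says nothing of whether it was expressed. None of the 20 transcripts overlapped a second gene.

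Polycomb proteins keep developmental genes silent through marks on histones. Polycomb repressive complex 2 (PRC2) methylates histone H3 at the H3K27 position: Ezh1 or Ezh2 carries the catalytic SET domain, Eed binds the methyl mark and stimulates the enzyme, Suz12 is the scaffold, Rbbp4 or Rbbp7 binds histones, and Jarid2 is a cofactor that helps to recruit the complex. Polycomb repressive complex 1 (PRC1) ubiquitinates histone H2A through the E3 ligases Rnf2 (also called RING1B) and Ring1, each paired with a PCGF protein such as Bmi1. In the oocyte, maternally deposited H3K27 methylation silences a set of genes on the maternal allele of the early embryo, and PRC2 is needed for development after implantation.

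Sperm came from DBA/2J males (the collection protocol names DBA/2N), MII oocytes from C57/BL6J females, and embryos from the cross ♂DBA/2J x ♀C57/BL6J. The females were 3 to 5 weeks old and superovulated, and no group carried a transgene, deletion or drug. Oocytes were taken 20 h after hCG, 1-cell embryos at 24 to 26 h, 2-cell embryos at 46 to 48 h, 4-cell embryos at 54 to 58 h, 8-cell embryos at 68 to 70 h and blastocysts at 94 to 96 h, the embryos after culture in KSOM. Each of the 7 stages had 2 short-read libraries from pooled cells and 1 long-read PacBio pool made from both cDNA batches, all amplified by Smart-seq2. The 2 libraries of a stage are batches of pooled cells, so p-values measure the spread between these libraries. TPM keeps no read depth, and the precision of a value is known only from its pair of libraries.

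The coding segments that set apart the major transcripts of Ezh2 and Eed are shown first, since the transcript results below turn on them. They were read from the GENCODE vM21 transcripts of Ezh2 and Eed (mm10), 5′ to 3′ on the coding strand, with the alternative segment in capitals and 20 bases of the neighbouring coding sequence on each side in lower case. The first is a 126-base exon of Ezh2 that is either spliced in or skipped (chr6:47541845-47541970, minus strand), the second 27 bases that a later donor site adds to an exon of Ezh2 (chr6:47576536-47576562, minus strand), and the third 89 bases at the end of an exon of Eed (chr7:89956255-89956343, minus strand).
Ezh2 exon of 126 bases: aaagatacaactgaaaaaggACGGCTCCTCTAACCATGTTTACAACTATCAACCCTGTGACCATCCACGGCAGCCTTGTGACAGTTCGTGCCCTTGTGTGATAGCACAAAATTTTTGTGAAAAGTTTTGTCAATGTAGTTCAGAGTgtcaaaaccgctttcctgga
Ezh2 segment of 27 bases: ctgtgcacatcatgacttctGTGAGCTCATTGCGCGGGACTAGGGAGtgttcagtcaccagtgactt
Eed segment of 89 bases: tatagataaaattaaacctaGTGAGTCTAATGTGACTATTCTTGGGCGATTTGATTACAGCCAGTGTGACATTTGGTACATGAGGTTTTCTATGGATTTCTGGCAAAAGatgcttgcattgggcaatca
Both Ezh2 segments are whole numbers of codons. The Eed segment is not, and without it the reading frame from the annotated start codon ended after 367 codons instead of 441, of which 345 precede the segment.

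The promoters of Rbbp7 and Bmi1 are shown because these were the members that changed between neighbouring stages in the test described below. Each is the 250 bases before the RefSeq start site on GRCm38.p6, on the strand of the gene. Over the merged transcripts, 66.2% and 81.1% of Bmi1 TPM in 4-cell embryos came from a transcript that begins 3354 bases downstream of that site. The Bmi1 window is thus not the sequence before the start of that transcript. Matches on either strand to any of the motifs named next are in capitals. The TATA box, searched as the letters TATAAA, is bound by the basal transcription machinery. The GC box, searched as GGGCGG, is bound by Sp family activators. The E-box, searched as CACGTG, is bound by basic helix-loop-helix factors, and the fourth motif is the CCAAT box, bound by NF-Y.
Rbbp7, chrX:162760122-162760371, plus strand: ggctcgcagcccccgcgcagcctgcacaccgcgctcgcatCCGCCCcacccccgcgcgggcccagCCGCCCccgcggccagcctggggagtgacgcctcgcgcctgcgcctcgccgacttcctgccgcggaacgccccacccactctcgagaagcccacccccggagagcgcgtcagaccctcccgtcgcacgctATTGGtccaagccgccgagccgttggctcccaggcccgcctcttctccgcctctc
Bmi1, chr2:18676768-18677017, plus strand: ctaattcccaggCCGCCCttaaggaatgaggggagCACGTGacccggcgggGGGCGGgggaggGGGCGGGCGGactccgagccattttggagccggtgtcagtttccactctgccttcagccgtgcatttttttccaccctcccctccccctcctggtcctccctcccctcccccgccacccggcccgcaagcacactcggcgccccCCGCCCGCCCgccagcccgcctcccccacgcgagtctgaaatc
The Rbbp7 window held 2 GC boxes and 1 CCAAT box and the Bmi1 window 6 GC boxes, overlapping ones counted apart, and 1 E-box. All 10 genes were found in the promoter table, with 11 promoters in all because Jarid2 has 2 start sites. A GC box was present in 8 of these 11, against 32.7% of all 32851 mouse promoters, a CCAAT box in 5 (33.8% of all), an E-box in 2 (6.02% of all) and a TATA box in 1, at the downstream start of Jarid2 (12.4% of all). Every one of the 11 held more CpG dinucleotides than the median promoter, from 12 for Eed to 37 for Suz12 against a median of 6. These are counts of letters in a window and say nothing of binding.

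Replicates differed more at some stages than at others. The median SD of log2(TPM + 1) over 10000 genes was 0.19 at the 4-cell stage, 0.67 in blastocysts, 0.79 in sperm and 1.04 at the 2-cell stage. The 2-cell libraries differed in the markers of that stage: 6 genes including Zscan4d summed to 25.04 TPM in replicate 1 and 569.98 TPM in replicate 2, so values at the 2-cell stage are given for each library. The 25.04 TPM of replicate 1 lay below both 1-cell libraries (47.3 and 39.6 TPM), and 6 oocyte markers summed to 77.5 TPM in 2-cell replicate 1, below both 4-cell libraries (109 and 135 TPM), and to 806 TPM in replicate 2. The 1-cell, 4-cell and 8-cell stages had no marker list of their own. In sperm 6 sperm markers summed to 14026 to 20770 TPM, and to at most 17.0 TPM elsewhere. The oocyte markers summed to 16835 to 29168 TPM in oocytes and to 5544 and 3496 TPM in 1-cell embryos. Of these, Gdf9, Mos and H1foo were lower in 1-cell embryos than in oocytes, Bmp15 and Nlrp5 were higher, and Zp3 overlapped. In blastocysts 6 blastocyst markers summed to 10347 to 37495 TPM. Elsewhere they reached at most 894 TPM, in 8-cell embryos, with 170 and 733 TPM in sperm. Markers of other somatic cells, led by the globin gene Hba-a1, summed to 2108 and 4775 TPM in sperm and to 0.131 to 375 TPM in the other libraries. The part of these cells in the sperm values was not tested. Of 6 cumulus cell markers only Amhr2 had a transcript, so the others have no value and do not show whether cumulus RNA was present. Amhr2 stood at 44.9 and 49.9 TPM in 2-cell, 99.2 and 107 TPM in 4-cell and 23.0 and 34.7 TPM in 8-cell embryos, and at most 0.206 TPM in oocytes.

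Across the 7 stages the 9 genes ran from under 1 TPM to 6502 TPM. Rbbp7 in the oocyte was the most abundant, above 99.6% of the 7214 genes with a mean of at least 1 TPM there, and Suz12 in sperm the least. The genes fell into distinct courses after fertilization: Rbbp7 dropped at the 2-cell stage, Bmi1 held until the 2-cell stage and dropped to a few TPM by the 8-cell stage, Jarid2 was at its highest in 8-cell embryos and blastocysts, and Rbbp4 varied least.

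**Figure D1:**
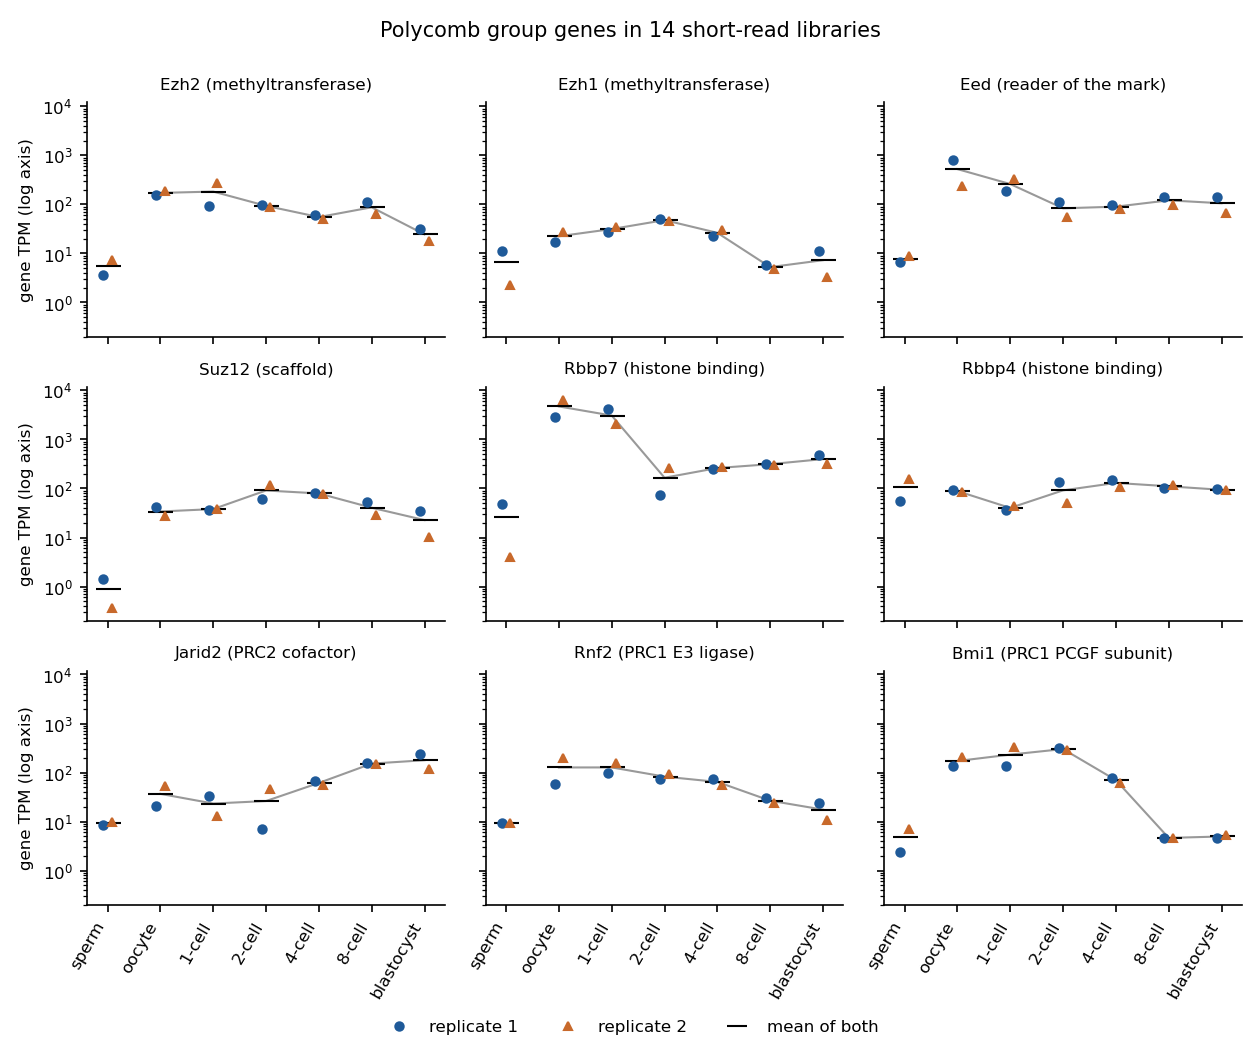
TPM of each of the 9 Polycomb group genes with a transcript (log axis) in the 14 short-read libraries, by stage; circles and triangles are the 2 replicates, short bars their mean, and the grey line joins the means from oocyte to blastocyst. Rbbp7 falls from 2035 TPM or more in oocytes and 1-cell embryos to 479 TPM or less later, Bmi1 falls to 4.63 to 5.23 TPM in 8-cell embryos and blastocysts, and Jarid2 reaches 116 to 241 TPM there.

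Ezh2 (chr6:47530139-47595341, minus strand), the methyltransferase subunit of dividing cells, stood at 3.62 and 7.46 TPM in sperm, 159 and 184 in oocytes, 94.1 and 272 in 1-cell embryos, 99.4 and 87.8 in 2-cell embryos, 60.7 and 49.8 in 4-cell embryos, 110.0 and 64.9 in 8-cell embryos and 31.4 and 17.7 in blastocysts. Its level was thus high in the oocyte and lowest among embryonic stages in the blastocyst, where neither library reached any library of another embryonic stage. In the order of means the 1-cell and oocyte libraries overlapped, as did those of the 2-cell and 8-cell stages. Counted over the long-read transcripts of the 1-cell pool alone, the 1-cell libraries held 272 and 803 TPM of Ezh2. That pool held 7 partial Ezh2 transcripts, and a molecule can be counted in several of them.

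Ezh1 (chr11:101191115-101226463, minus strand), the paralog that prevails in many non-dividing cells, stood at 11.2 and 2.31 TPM in sperm, 17.0 and 27.9 in oocytes, 28.0 and 35.0 in 1-cell embryos, 50.6 and 45.2 in 2-cell embryos, 22.7 and 30.0 in 4-cell embryos, 5.68 and 4.85 in 8-cell embryos and 11.3 and 3.25 in blastocysts. Over the merged transcripts both 2-cell libraries lay above those of every other stage, which does not hold over the transcripts of each pool alone, at means of 40.4 TPM in 1-cell and 33.7 TPM in 2-cell embryos. The gene was lowest in 8-cell embryos, blastocysts and sperm, whose libraries overlapped. Of its TPM, 44.7% to 76.9% by stage mean came from a single-exon transcript of its 3′ end, so much of its level rests on reads from that end. A transcript of 131 bases at the 5′ end took 50.1% and 25.2% in 2-cell embryos, so the high 2-cell values rest in part on it. It was also the only Ezh1 transcript of the 1-cell pool.

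Eed (chr7:89954654-89980983, minus strand), the subunit that reads the methyl mark, stood at 6.72 and 8.88 TPM in sperm, 817 and 235 in oocytes, 185 and 336 in 1-cell embryos, 111 and 55.5 in 2-cell embryos, 97.9 and 82.1 in 4-cell embryos, 143 and 99.4 in 8-cell embryos and 143 and 68.0 in blastocysts. The oocyte libraries overlapped those of the 1-cell stage, and the libraries of the 4 later stages overlapped one another in the order of means. Suz12 (chr11:79993106-80034123, plus strand), the scaffold, stood at 1.41 and 0.370 TPM in sperm, 41.0 and 26.9 in oocytes, 37.1 and 38.9 in 1-cell embryos, 62.5 and 119.7 in 2-cell embryos, 82.1 and 76.2 in 4-cell embryos, 52.8 and 28.2 in 8-cell embryos and 35.1 and 10.2 in blastocysts. Its mean over the merged transcripts was highest at the 2-cell and 4-cell stages. This order depends on the transcripts counted: over those of each pool alone the mean was 121 TPM at the 1-cell stage and 116 TPM at the 2-cell stage, with oocytes at 91.99, 4-cell embryos at 89.6, 8-cell embryos at 91.96 and blastocysts at 74.2 TPM. For Eed such a count moved the sperm mean from 7.80 to 28.9 TPM. The Suz12 transcripts of the 1-cell pool were 3 partial ones of 867, 1087 and 582 bases. A molecule can be counted repeatedly in such a sum, so these means are not like for like across stages.

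Rbbp7 (chrX:162760402-162779092, plus strand), a histone-binding subunit shared by PRC2 and several deacetylase complexes, stood at 47.9 and 3.97 TPM in sperm, 2929 and 6502 in oocytes, 4112 and 2035 in 1-cell embryos, 72.3 and 259 in 2-cell embryos, 246 and 277 in 4-cell embryos, 322 and 305 in 8-cell embryos and 479 and 316 in blastocysts. All 4 oocyte and 1-cell libraries lay above every library of the later stages. Its paralog Rbbp4 (chr4:129307100-129335370, minus strand) stood at 55.2 and 158 TPM in sperm, 91.6 and 85.4 in oocytes, 36.0 and 44.2 in 1-cell embryos, 133 and 50.1 in 2-cell embryos, 151 and 109 in 4-cell embryos, 104 and 117 in 8-cell embryos and 95.5 and 92.4 in blastocysts. Of the 6 neighbours in its order of means, 5 overlapped, and only the 1-cell stage lay apart, below the rest.

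Jarid2 (chr13:44729474-44921643, plus strand), the cofactor of PRC2, stood at 8.47 and 9.97 TPM in sperm, 20.6 and 52.9 in oocytes, 33.6 and 13.0 in 1-cell embryos, 7.02 and 45.5 in 2-cell embryos, 66.7 and 56.0 in 4-cell embryos, 155 and 149 in 8-cell embryos and 241 and 116 in blastocysts. All 4 libraries of the 8-cell embryo and blastocyst lay above every earlier library. Both of its merged transcripts covered only the 3′ end of the gene, so this is the level of its 3′ end. They did not overlap, so a molecule can be counted in both.

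Rnf2 (chr1:151458004-151500955, minus strand), the E3 ligase of PRC1, stood at 9.29 and 9.36 TPM in sperm, 57.9 and 196 in oocytes, 96.1 and 158 in 1-cell embryos, 73.3 and 91.8 in 2-cell embryos, 73.9 and 54.7 in 4-cell embryos, 29.6 and 23.8 in 8-cell embryos and 24.3 and 10.7 in blastocysts. The order of its means ran from the 1-cell stage downwards through development, with a gap between libraries only from the 4-cell to the 8-cell stage and from the blastocyst to sperm. Bmi1 (chr2:18677018-18686629, plus strand), the PCGF subunit also known as Pcgf4, stood at 2.34 and 7.21 TPM in sperm, 139 and 205 in oocytes, 137 and 327 in 1-cell embryos, 309.9 and 293 in 2-cell embryos, 78.0 and 62.0 in 4-cell embryos, 4.63 and 4.66 in 8-cell embryos and 4.70 and 5.23 in blastocysts. The libraries of the 8-cell embryo and blastocyst thus lay below every library from oocyte to 4-cell embryo. Over the transcripts of the 1-cell pool alone the 1-cell means were 672 TPM for Bmi1 and 255 TPM for Rnf2, against 232 and 127 TPM over the merged ones. The Bmi1 transcripts of that pool were single-exon pieces of 775 and 420 bases, and Rnf2 had a single-exon piece of 624 bases beside its coding transcript. A molecule can be counted in several pieces.

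Each neighbouring step was tested with limma on log2(TPM + 1), in 1 fit of the 12 oocyte and embryo libraries over 10000 genes, with a call at a Benjamini-Hochberg adjusted p under 0.05. All 9 genes passed the filter of 1 TPM in at least 2 libraries. The median log2 change of all genes was 0.23 for the step into the 1-cell stage, 0.72 into the 2-cell stage, 0.04 into the 4-cell stage, -0.34 into the 8-cell stage and -0.14 into the blastocyst. Between oocyte and blastocyst it was 0.82, and changes of single genes are read against these shifts. TPM is a share of each library, and fewer cells of a type and less RNA per cell cannot be told apart from it.

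From oocyte to 1-cell embryo none of the 9 genes was called by limma, against 0.33% of all genes higher and 0.05% lower. At an unadjusted p under 0.05 the whole table held 920 genes. The largest change was that of Rbbp4, from 91.6 and 85.4 TPM to 36.0 and 44.2 (log2 change -1.13, SE 0.68, adjusted p = 0.705).

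From 1-cell to 2-cell embryo Rbbp7 fell by 4.39 on the log2 scale (SE 0.84, adjusted p = 0.00152), 21.0-fold on the scale of TPM + 1. It was the only member called of 9, lower, against a background of 6.2% of all genes lower and 26.1% higher. After quantile normalization 1757 genes were lower and 1591 higher, against 620 and 2607 before, and Rbbp7 was still called lower. The fall held without either 2-cell library: log2 change -3.48 without replicate 1 (adjusted p = 0.00729) and -5.30 without replicate 2 (adjusted p = 0.00042). Over its 20 alternatives the adjusted p of this change ranged from 0.00042 to 0.0465. Eed moved in the same direction without passing the test (log2 change -1.65, SE 0.79, adjusted p = 0.127), and Suz12 (1.17, SE 0.74, adjusted p = 0.248) and Rbbp4 (1.02, SE 0.68, adjusted p = 0.277) had the largest positive changes.

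From 2-cell to 4-cell embryo none of the 9 genes was called by limma, against 1.58% of all genes higher and 1.82% lower, and 2453 genes of the whole table had an unadjusted p under 0.05. Bmi1 came closest, from 309.9 and 293 TPM to 78.0 and 62.0 (log2 change -2.10, SE 0.67, adjusted p = 0.0848), and was called after quantile normalization (log2 change -2.85, adjusted p = 0.0218). Jarid2 went from 7.02 and 45.5 TPM to 66.7 and 56.0 (log2 change 1.69, SE 0.88, adjusted p = 0.246), and was called only without 2-cell replicate 2 (log2 change 2.95, adjusted p = 0.0362).

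From 4-cell to 8-cell embryo Bmi1 fell by 3.64 on the log2 scale (SE 0.67, adjusted p = 0.0141), 12.5-fold on the scale of TPM + 1, and was the only member called of 9, lower, against 0.9% of all genes lower and 0.77% higher. The libraries stood at 78.0 and 62.0 TPM before and 4.63 and 4.66 after. The call was lost when any of these 4 libraries was left out, with adjusted p = 0.232 without 4-cell replicate 1, 0.201 without 4-cell replicate 2, 0.146 without 8-cell replicate 1 and 0.232 without 8-cell replicate 2, while the log2 change stayed between -3.81 and -3.48. The 4-cell and 8-cell stages had the closest replicates of the series, and a fit with the spread weighted by stage called 3921 of 10000 genes at this step. In that fit Ezh1 (log2 change -2.12, adjusted p = 9.5e-05), Rnf2 (-1.23, adjusted p = 0.0134), Suz12 (-1.02, adjusted p = 0.0337) and Jarid2 (1.30, adjusted p = 0.0108) were called too. A fit of the 4 libraries of both stages called Ezh1 (adjusted p = 0.0109), Jarid2 (0.0177) and Rnf2 (0.032). With 1 spread for all stages the adjusted p was 0.145 for Ezh1, 0.472 for Rnf2, 0.570 for Suz12 and 0.531 for Jarid2.

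From 8-cell embryo to blastocyst none of the 9 genes was called by limma, against 1.51% of all genes higher and 1.49% lower, and 1441 genes had an unadjusted p under 0.05. Ezh2 had the largest change, from 110.0 and 64.9 TPM to 31.4 and 17.7 (log2 change -1.80, SE 0.72, adjusted p = 0.245).

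**Figure D2:**
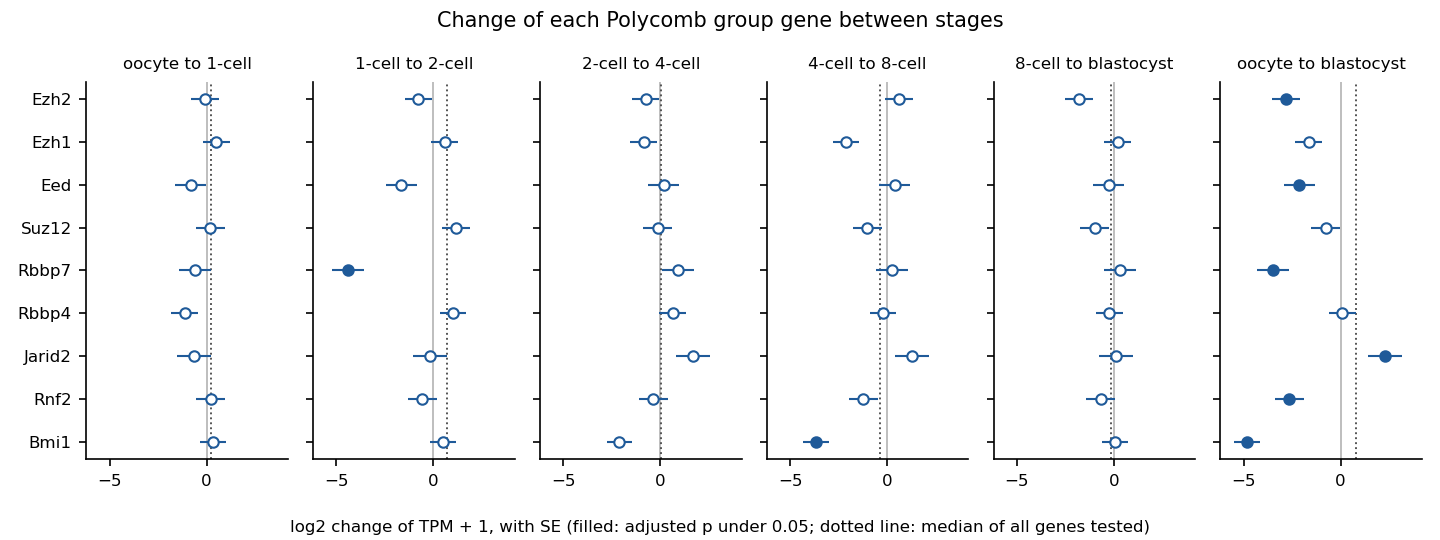
Change of each of the 9 genes in log2(TPM + 1) between stages, with its SE from limma over 12 libraries; filled points passed the adjusted p of 0.05, and the dotted line is the median of all 10000 genes tested. Among neighbouring stages only Rbbp7 (1-cell to 2-cell, -4.39) and Bmi1 (4-cell to 8-cell, -3.64) are filled.

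From oocyte to blastocyst 5 of the 9 genes were lower and 1 was higher, against 18% of all genes lower and 35.4% higher. After quantile normalization 2637 genes were lower and 2659 higher, against 1798 and 3543 before. Bmi1 fell the most (log2 change -4.83, SE 0.67, adjusted p = 5.36e-05), followed by Rbbp7 (-3.48, SE 0.84, adjusted p = 0.003), Ezh2 (-2.81, SE 0.72, adjusted p = 0.00455), Rnf2 (-2.64, SE 0.75, adjusted p = 0.00841) and Eed (-2.14, SE 0.79, adjusted p = 0.0347). The list therefore held subunits of both complexes, from the catalytic subunit of PRC2 to the ligase and PCGF partner of PRC1. Jarid2 rose by 2.30 on the log2 scale (SE 0.88, adjusted p = 0.0384). The median of the 9 changes was -2.14, beside 0.82 over all genes tested. Ezh1 (-1.65, SE 0.69, adjusted p = 0.0574), Suz12 (-0.77, SE 0.74, adjusted p = 0.397) and Rbbp4 (0.09, SE 0.68, adjusted p = 0.929) were not called, and Ezh1 passed after quantile normalization (log2 change -2.37, adjusted p = 0.00601) and without 2-cell replicate 1 (0.0363), 2-cell replicate 2 (0.0362) or blastocyst replicate 1 (0.0196).

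The calls of Bmi1, Rbbp7 and Ezh2 between oocyte and blastocyst held in all 20 alternatives, with adjusted p of at most 0.0388. That of Rnf2 was lost without oocyte replicate 2 (adjusted p = 0.0902) and without blastocyst replicate 2 (0.0696). That of Eed, whose oocyte libraries stood at 817 and 235 TPM, had a log2 change of -1.24 without oocyte replicate 1 and -3.03 without replicate 2. It was lost without oocyte replicate 1 (0.261), without blastocyst replicate 2 (0.183), and without 4-cell replicate 1 or 2 or 8-cell replicate 1 or 2 (0.0551 to 0.0583). It was also lost with the spread weighted by stage (0.0547) and in a fit of the 4 libraries of both stages (0.116). That of Jarid2 was lost after quantile normalization (log2 change 1.70, adjusted p = 0.0683), with the replicate block (0.0517), without oocyte replicate 1 (0.226), without blastocyst replicate 1 (0.207) or 2 (0.0502), without 4-cell or 8-cell replicate 1 or 2 (0.0561 to 0.0568), and in a fit of the 4 libraries of both stages (0.0674).

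Sperm and oocyte, the pair of gametes, were compared in a fit of all 14 libraries over 10735 genes, in which the median log2 change from sperm to oocyte was -0.90. All 6 members called of 9 were higher in the oocyte, against 17.4% of all genes higher and 36.2% lower. The split of all genes depends on the scaling, since 2873 were higher and 2854 lower after quantile normalization, against 1863 and 3890 before. Rbbp7 differed the most (log2 change 8.13, SE 1.04, adjusted p = 1.07e-05), followed by Eed (5.65, SE 0.82, adjusted p = 3.36e-05), Bmi1 (5.02, SE 0.74, adjusted p = 3.85e-05), Ezh2 (4.79, SE 0.76, adjusted p = 7.84e-05), Suz12 (4.23, SE 0.77, adjusted p = 0.000252) and Rnf2 (3.38, SE 0.77, adjusted p = 0.00155). Rbbp4 differed the least, at 55.2 and 158 TPM in sperm and 91.6 and 85.4 TPM in oocytes (log2 change -0.08, SE 0.78, adjusted p = 0.942). Ezh1 (1.84, adjusted p = 0.0579) and Jarid2 (1.74, adjusted p = 0.103) were not called. Both passed after quantile normalization (adjusted p = 0.00857 and 0.0191), and Ezh1 also without sperm replicate 1 (log2 change 2.79, adjusted p = 0.0163) and without either 2-cell or blastocyst library (0.0431 to 0.0485). The 6 calls held in all 22 alternatives. The sperm libraries are those with 2108 and 4775 TPM of somatic markers, and the part of other cells in the sperm values was not tested.

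An F test over the 6 stages from oocyte to blastocyst called 6 of the 9 genes, beside 70.8% of all 10000 genes: Bmi1 (adjusted p = 9.16e-06), Rbbp7 (0.000456), Ezh1 (0.00664), Jarid2 (0.0148), Rnf2 (0.0169) and Ezh2 (0.0231). The share is close to that of all genes. Eed (0.0641), Suz12 (0.12) and Rbbp4 (0.308) were not called, although Eed was between oocyte and blastocyst alone. The F test of Ezh2 was lost without 4-cell replicate 1 (0.0575), 4-cell replicate 2 (0.063) or blastocyst replicate 2 (0.111), that of Rnf2 without 8-cell replicate 2 (0.0534) or blastocyst replicate 2 (0.0742), and that of Jarid2 without blastocyst replicate 1 (0.0519). Eed passed after quantile normalization (0.0294), with the spread weighted by stage (0.0232), and without oocyte replicate 2 (0.0309) or 2-cell replicate 1 (0.0369). Suz12 passed with the spread weighted by stage (0.029) and without blastocyst replicate 1 (0.0472).

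Since a PRC2 complex holds either paralog of each pair, the balance within the pairs was taken in each library, as a description with no test. Rbbp7 made up 97.0% and 98.7% of the summed TPM of Rbbp7 and Rbbp4 in oocytes and 99.1% and 97.9% in 1-cell embryos. In 2-cell embryos the share was 35.2% in replicate 1 and 83.8% in replicate 2, and from the 4-cell embryo to the blastocyst it lay between 62.0% and 83.4%. The pair thus went from nearly all Rbbp7 to a mixture. Sperm was again uneven, at 46.5% and 2.45%. Ezh2 made up 90.4% and 86.9% of Ezh2 plus Ezh1 in oocytes, 66.3% and 66.0% in 2-cell embryos, 72.8% and 62.4% in 4-cell embryos, 95.1% and 93.0% in 8-cell embryos and 73.5% and 84.5% in blastocysts. Ezh2 prevailed in every library from oocyte to blastocyst, by 1.66-fold to 19.4-fold, and the 8-cell embryo had the highest share. The share in sperm was 24.4% in replicate 1 and 76.4% in replicate 2. Ezh1 was summed over 3 transcripts of different parts of the gene, so a molecule can be counted in several of them. The Ezh2 transcripts ran over most of their gene, so the balance of this pair carries that limit.

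**Figure D3:**
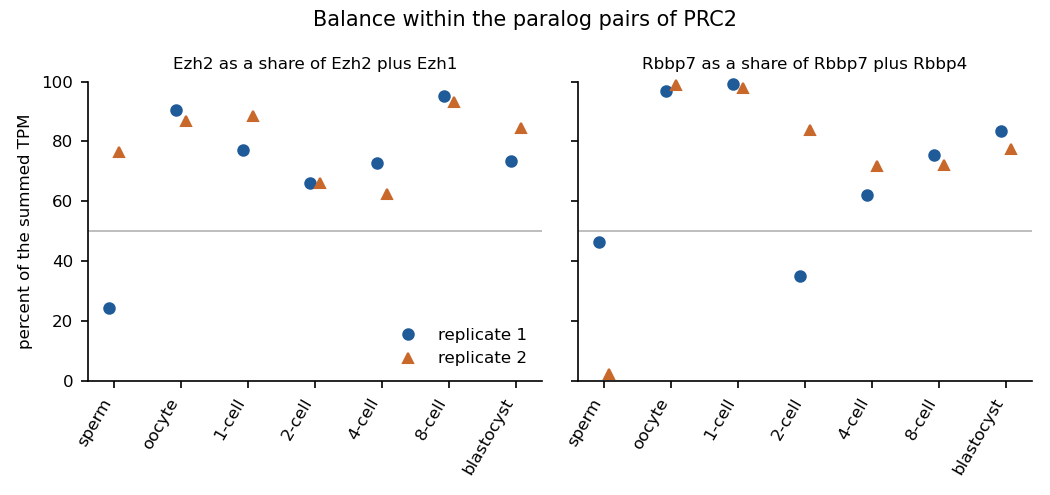
Left, Ezh2 as a percent of the summed TPM of Ezh2 and Ezh1; right, Rbbp7 as a percent of that of Rbbp7 and Rbbp4; 1 point per library, by stage, with the grey line at 50%. Rbbp7 takes 97.0% or more in the 4 oocyte and 1-cell libraries, and Ezh2 takes more than 62% in every library from oocyte to blastocyst. Ezh1 is summed over 3 transcripts of different parts of the gene.

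At the level of transcripts, 17 of the 20 had a mean of at least 1 TPM at some stage, and 15 of these took at least 20% of their gene at some stage. Changes of transcript use were called for Ezh2 and, at a few percent of the gene, for Rbbp7. The Ezh2 transcript of 20 exons (TCONS_00017306), which holds the 126-base exon shown above and lacks the 27-base segment, took 69.7% and 56.7% of Ezh2 TPM in oocytes, 62.0% and 54.6% in 1-cell embryos, 50.8% and 54.5% in 2-cell embryos, 30.6% and 37.2% in 4-cell embryos, 29.8% and 29.0% in 8-cell embryos and 24.8% and 31.8% in blastocysts. All 6 libraries up to the 2-cell stage lay above all 6 later ones. The rest of Ezh2 was nearly all the 19-exon transcript (TCONS_00017305), which skips the 126-base exon and holds the 27-base segment. In TPM, the 20-exon form went from 111 and 104 in oocytes to 7.80 and 5.62 in blastocysts and the 19-exon form from 48.2 and 79.8 to 23.5 and 12.1.

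Transcript use was tested with limma as the log2 ratio of a transcript to the rest of its gene over the 6 stages. Both Ezh2 transcripts were called (adjusted p = 0.0187), beside 39.2% of the 10407 transcripts tested. Each is nearly all of the rest of the gene for the other, so their tests mirror each other and are not separate results. The call was lost with a pseudocount of 0.1 (adjusted p = 0.0578 and 0.0584), without 8-cell replicate 1 (0.053) and without 8-cell replicate 2 (0.0549 and 0.0547). The values of the 20-exon form itself differed between stages (adjusted p = 0.00292), those of the 19-exon form did not pass (0.237), and 65.1% of the 20250 transcripts tested were called. No stage had a long-read transcript that held a whole annotated coding sequence of Ezh2. Which of the 126-base exon and the 27-base segment moved cannot be told apart in TPM.

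The long-read transcripts of single stages were examined for each segment on its own. Among those of Ezh2 that reached across the 126-base exon, the oocyte pool had 1 with it and none without, the 1-cell and 8-cell pools 1 of each, and the 4-cell pool 1 without it. Of those across the 27-base segment, 4 held it and 3 lacked it in the oocyte, 2 and 2 in the 1-cell embryo, 1 and 0 in the 4-cell embryo, and 4 and 1 in the 8-cell embryo. Both forms of each segment were thus present in the oocyte or 1-cell embryo. The pool transcripts that reached across both segments, in the 4-cell and 8-cell pools, skipped the 126-base exon. No pool transcript had the chain of introns of either merged form. How the segments pair in the 20-exon form therefore rests on the merged transcripts. Neither the 2-cell nor the blastocyst pool held an Ezh2 transcript.

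The 2 Eed transcripts differed by the 89-base segment and at their 5′ ends. The transcript with the segment began 10 bases downstream of the RefSeq start and the other 290 bases. A share in TPM cannot tell the longer 5′ end from the segment. The form without it (TCONS_00019030) took 6.04% and 21.2% of Eed TPM in oocytes, 29.1% and 19.4% in 1-cell embryos, 30.5% and 41.5% in 2-cell embryos, 36.9% and 48.6% in 4-cell embryos, 39.7% and 37.5% in 8-cell embryos and 40.2% and 29.9% in blastocysts. All 4 oocyte and 1-cell libraries lay below all 8 later ones, but the test of use did not pass (adjusted p = 0.0943), passing only without oocyte replicate 2 (0.0267). In TPM this form lay between 20.4 and 65.2 in every library from oocyte to blastocyst, with no call over the stages (adjusted p = 0.736). The full-length form (TCONS_00019031) went from 767 and 185 TPM in oocytes to 85.7 and 47.7 TPM in blastocysts (adjusted p = 0.0436 over the 6 stages). That call was lost without oocyte replicate 1 (0.13) and without any of the 1-cell, 4-cell, 8-cell and blastocyst libraries (0.053 to 0.106). Each pool from oocyte to blastocyst held 1 transcript with the segment, and the 2-cell, 8-cell and blastocyst pools each held 1 without it.

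Bmi1 had 2 transcripts with the same coding sequence and different first exons. The annotated one (TCONS_00010856) matched a GENCODE transcript. The other (TCONS_00010857) began 3354 bases downstream of the RefSeq start, in a first exon of 40 bases (chr2:18680372-18680411) that was spliced by an intron absent from GENCODE. The position at which it began is itself an annotated start of Bmi1 in GENCODE. The downstream form took 8.60% and 21.6% of Bmi1 TPM in oocytes, 42.1% and 34.2% in 1-cell embryos, 27.9% and 67.2% in 2-cell embryos and 66.2% and 81.1% in 4-cell embryos, after which the gene was at about 5 TPM and the shares were uneven. By the merged transcripts the 4-cell libraries held 51.6 and 50.3 TPM of the downstream form and 26.3 and 11.7 TPM of the annotated one. The 2-cell pool held a transcript of each form, the oocyte pool only the annotated one, and the single 4-cell transcript began at chr2:18682879, beyond both first exons. Over the transcripts of the 2-cell pool alone, the downstream form had 86.6 of 344 TPM in replicate 1 and 8.74 of 333 TPM in replicate 2, so the share of 67.2% does not hold under that setting. The test of use did not pass (adjusted p = 0.0656), and passed without 2-cell replicate 1 (0.0264), without 2-cell replicate 2 (0.0375), without blastocyst replicate 1 (0.0473) or with the spread weighted by stage (0.00972). Both forms on their own were called over the 6 stages (adjusted p = 0.000183 and 0.00012).

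**Figure D4:**
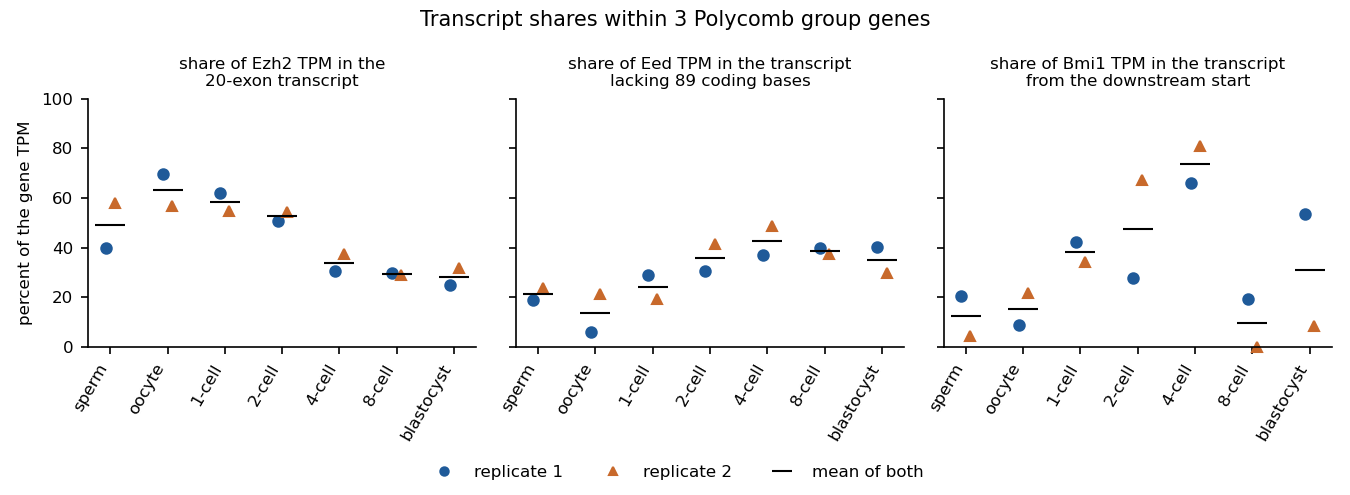
Percent of the gene TPM taken by 1 transcript of Ezh2 (with the 126-base exon), Eed (lacking 89 coding bases) and Bmi1 (from the downstream start), in each of the 14 libraries by stage; circles and triangles are the 2 replicates and short bars their mean. The Ezh2 form falls from 56.7% and 69.7% in oocytes to 24.8% and 31.8% in blastocysts, and the Bmi1 form reaches 66.2% and 81.1% in 4-cell embryos.

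The annotated coding transcript of Rbbp7 (TCONS_00022158) carried 97.3% to 99.9% of the gene by stage mean. The use of it and of a minor transcript (TCONS_00022156) was called (adjusted p = 0.0353 and 0.0217), the minor one reaching 2.62% in 2-cell embryos. Together they make up nearly all of the gene, so their tests largely mirror each other. Neither call held after quantile normalization (0.386 and 0.326), with a pseudocount of 0.1 (0.0675 and 0.0596) or without either 2-cell, 4-cell or 8-cell library (0.0523 to 0.117). The main Rbbp4 transcript of the merged set held the full coding sequence, with 1 intron that GENCODE lacks. Among the pools, only that of the oocyte held its chain of introns. The sperm, 2-cell, 4-cell, 8-cell and blastocyst pools held Rbbp4 with an annotated chain, which no merged Rbbp4 transcript had. Merged TPM therefore cannot weigh this form against the annotated one. Rnf2 had only its annotated coding transcript. Suz12 had 1 transcript with an annotated chain of introns that began 390 bases inside the gene and held 92.1% of the coding sequence. The longer Jarid2 transcript, of 11 exons, held 46.3% of the coding sequence and took 51.2% to 74.1% of the gene in the stage means from oocyte to blastocyst. The rest was the single-exon one. Ezh1 was split among 3 transcripts, of which the 15-exon one held 74.2% of the longest coding sequence and the others at most 2.4%.

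The long-read pools, made from the same cDNA, were searched for a transcript of each gene, of any length. Some were short pieces, such as 131 bases of Ezh1 in the 1-cell pool and a single exon of 858 bases of Eed in sperm. A transcript of Rbbp7 or Eed was present in all 7 pools, of Suz12 and Rbbp4 in 6, of Ezh2, Rnf2 and Bmi1 in 4, and of Ezh1 and Jarid2 in 3. By stage, 3 of the 10 genes had one in sperm, 7 in oocytes, 1-cell, 4-cell and 8-cell embryos, 8 in 2-cell embryos and 5 in blastocysts. Bmi1 had none in the 8-cell and blastocyst pools, the stages at which its short-read level was at its lowest among embryos. Jarid2 had transcripts in the 2-cell, 8-cell and blastocyst pools. An annotated coding sequence was complete for Rbbp7 in all 7 pools, Eed and Rbbp4 in 6, Rnf2 in 4, Bmi1 in 2 and Ezh1 in 1, there of a shorter annotated protein, and Ezh2, Suz12 and Jarid2 in none.

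The wider Polycomb pathway was described with a list of 51 genes, the 10 members included, of which 36 had a transcript. Of the 27 others, limma called none at the step into the 1-cell stage, 6 higher and 1 lower into the 2-cell stage, 1 lower into the 4-cell stage, none into the 8-cell stage and 1 lower into the blastocyst. Between oocyte and blastocyst 4 were higher and 10 lower. The shares of all genes are those given above. The gene with the largest change was AU022751, the mouse gene for EZHIP, which inhibits PRC2. It stood at 1081 and 3689 TPM in oocytes, 1164 and 2353 in 1-cell embryos, 102 and 32.5 in 2-cell embryos, 5.88 and 3.23 in 4-cell embryos and below 7 TPM later. Its log2 change was -4.82 from 1-cell to 2-cell (SE 0.81, adjusted p = 0.000682) and -3.45 from 2-cell to 4-cell (SE 0.81, adjusted p = 0.0401). The second call held in 9 of 20 alternatives, being lost without either 4-cell library (0.264 and 0.357), without 2-cell replicate 1 (0.0555) and without either 1-cell or 8-cell library (0.0566 to 0.0803).

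The PCGF partners of Rnf2 took different courses. Pcgf5, of a variant PRC1, rose from 3.37 and 8.17 TPM in 1-cell embryos to 46.3 and 90.7 TPM in 2-cell embryos (log2 change 3.38, SE 0.71, adjusted p = 0.00277), a call lost in a fit of the 4 libraries of both stages (0.0677). Pcgf1, also of a variant PRC1, went from 79.8 and 72.4 TPM in 8-cell embryos to 13.5 and 5.67 TPM in blastocysts (log2 change -2.97, SE 0.73, adjusted p = 0.0418), a call kept in 8 of 20 alternatives and in 4 of 12 that left out a library. The call was lost without either 8-cell library (0.396 and 0.233), either blastocyst library (0.054 and 0.301), either 4-cell library (0.0916 and 0.092) and either 1-cell library (0.0617 and 0.0602). In 8-cell embryos, where Bmi1 was at 4.63 and 4.66 TPM, Pcgf5 stood at 107 and 87.9 TPM. Cbx8, a canonical PRC1 subunit that binds H3K27 methylation, rose from a mean of 0.836 TPM in 1-cell embryos to 5.404 and 21.3 TPM in 2-cell embryos (log2 change 2.80, SE 0.63, adjusted p = 0.0045). The change was 1.90 without 2-cell replicate 2 and 3.70 without replicate 1, and the call was lost without 1-cell replicate 2 (0.0696) and in a fit of the 4 libraries of both stages (0.0893).

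**Figure D5:**
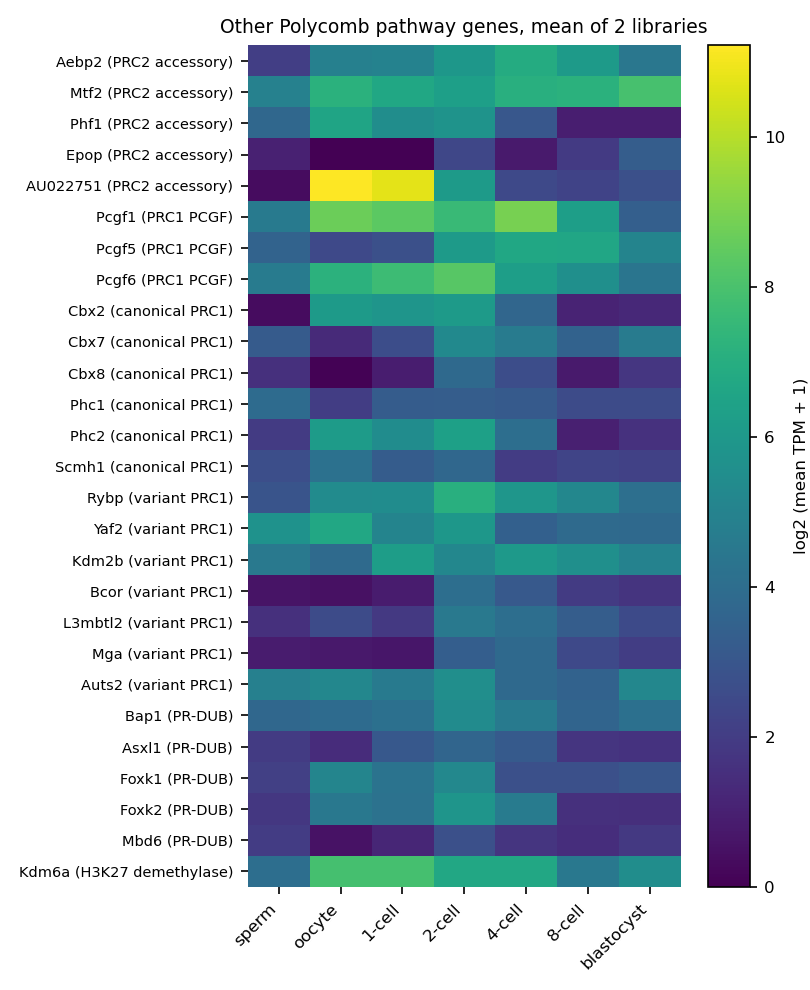
Mean level of the 27 other Polycomb pathway genes with a transcript, as log2 of the mean TPM of 2 libraries plus 1, by stage and ordered by complex. AU022751 is brightest in oocytes and 1-cell embryos and single-digit TPM from the 4-cell stage on, and Pcgf5 is brighter from the 2-cell stage on.

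The courses of the members were compared with those of all other genes by Pearson's r on the log2 scale over all 12 oocyte and embryo libraries, as a description. The libraries share 6 stages, so few independent points lie behind each r. The nearest of 9999 genes was Ndufb8 for Jarid2 (r = 0.99), Pde3b for both Bmi1 (0.98) and Ezh1 (0.96), Rif1 for Suz12 (0.98), Vta1 for Rbbp7 (0.98), Runx1t1 for Rnf2 (0.96), Nup37 for Eed (0.94), Scamp5 for Rbbp4 (0.93) and Mia2 for Ezh2 (0.92). Within the group Bmi1 and Ezh1 lay closest (r = 0.92), both with less TPM in 8-cell than in 2-cell embryos, and Jarid2 ran against Bmi1 (r = -0.87) and Ezh1 (r = -0.75).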

How the data were processed

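The authors mapped PacBio Iso-Seq transcripts to mm10 with GMAP and merged the transcripts of the 7 pools, and they used salmon to assign the short reads of 14 libraries to the merged transcripts. TPM values were deposited by the authors for each library, with no read counts, so the number of reads behind each value is unknown. The paper lists the total sequences of each short-read library, which were not used here. The members and lists were chosen with earlier results of these data known. TPM was summed over the merged transcripts that overlapped exons of a GENCODE vM21 gene on the same strand. A transcript on 2 or more genes went to the longest overlap. Genes with 1 TPM in at least 2 libraries were tested with limma 3.58.1 in R 4.3.3 on log2(TPM + 1), with a trended prior, Benjamini-Hochberg adjustment and a call at 0.05, after a check on simulated data. Transcript use was the log2 ratio of a transcript to the rest of its gene, each plus 1, in an F test over 6 stages. With 2 libraries a group, an exact permutation test cannot go below p = 0.333. Other genes were named if among the 3 called genes of the wider list with the largest change at a neighbouring step, or nearest in correlation. Transcripts were named at 20% of a gene in a stage mean. For the 8-cell stage the replicate numbers of the titles were used, which are opposite to those of the files. Alternatives were a pseudocount of 0.1, other filters, quantile normalization, a replicate block, weights by stage, left-out libraries, a fit of 4 libraries and own-stage transcripts.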

Additional observations from a re-analysis of the deposited data

How the results depend on the processing

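TPM without counts leaves the counting error of every value unknown, and with 2 libraries a stage the number of genes called moved by over 1.5 times in 18, 15 and 14 of 20 alternatives at the steps into the 1-cell, 4-cell and 8-cell stages, and in 4 and 7 of 20 at those into the 2-cell stage and the blastocyst. The cause was not tested. From oocyte to 1-cell embryo the 38 calls became 23 with a pseudocount of 0.1, 1 without a filter, 9 after quantile normalization, 86 with the spread weighted by stage and 0 in a fit of the 4 libraries. For the 2-cell stage the 3227 calls became 1531 when weighted and 1084 with 4 libraries. For the 4-cell stage the 340 calls became 85 with a pseudocount of 0.1, 1076 after quantile normalization, 1 when weighted and 0 with 4 libraries. For the 8-cell stage the 167 calls became 261 after quantile normalization, 3921 when weighted and 3169 with 4 libraries. Quantile normalization also moved the split of higher and lower calls, from 33 and 5 to 5 and 4 into the 1-cell stage, from 158 and 182 to 610 and 466 into the 4-cell stage, and from 77 and 90 to 181 and 80 into the 8-cell stage. For the blastocyst the 300 calls became 555 when weighted and 0 with 4 libraries. Leaving out 1 library gave 0 to 224, 1677 to 3809, 0 to 1714, 0 to 886 and 24 to 801 calls for these steps in order. Between oocyte and blastocyst it gave 4316 to 6200 calls, and between sperm and oocyte 4392 to 6341.

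With the replicate block the calls became 1 for oocyte to 1-cell, 87 for 2-cell to 4-cell and 89 for 4-cell to 8-cell. The numbers did not pair the samples: over 15 pairs of stages the correlation of the deviations ran from -0.547 to 0.479, with 5 over 0.1, so the block is given only as a setting.

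Directions that turned were all of changes that did not pass the test. After quantile normalization these were Suz12 from oocyte to 1-cell (-0.10), Ezh1 from 1-cell to 2-cell (-0.031), and Rbbp4 from oocyte to blastocyst (-0.31) and from sperm to oocyte (0.033). Leaving out 1 library spread the log2 change from oocyte to 1-cell over -0.86 to 0.66 for Ezh2, -1.71 to 0.088 for Eed, -0.11 to 0.49 for Suz12, -1.29 to 0.031 for Jarid2, -0.66 to 1.08 for Rnf2 and -0.29 to 0.95 for Bmi1. From 1-cell to 2-cell it was -1.46 to 1.08 for Jarid2 and -0.12 to 1.13 for Bmi1. From 2-cell to 4-cell it was -0.31 to 0.68 for Eed, -0.59 to 0.34 for Suz12 and -0.053 to 1.34 for Rbbp4, and from 4-cell to 8-cell -0.44 to 0.023 for Rbbp4. From 8-cell to blastocyst it was -0.56 to 0.98 for Ezh1, -0.80 to 0.26 for Eed and -0.39 to 0.66 for Jarid2. Over longer spans it was -1.61 to 0.080 for Suz12 from oocyte to blastocyst and -0.83 to 0.67 for Rbbp4 from sperm to oocyte. Levels over the transcripts of a stage alone moved by more than 1 SD in 20 of 44 cases, at 0.552 to 3.70 times the merged level. Where a pool held pieces of a gene, such a sum can count a molecule repeatedly.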
